A study of Mus musculus with 6 samples.

Results

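The transcripts described here are those of the adenylyl cyclases other than Adcy3 and of the cyclic nucleotide phosphodiesterases other than Pde2a, in nasal tissue of Atf5 knockout and wild-type mice at birth. Atf5 encodes a bZIP factor related to CREB. A gene was included when its symbol was on a list of 32 enzymes and enzyme subunits and at least 1 probe set on the array carried that symbol and no other. All 32 were measured, 9 cyclases and 23 phosphodiesterase genes, out of 19937 genes on the array. The arrays came from homozygous Atf5-/- pups and Atf5+/+ pups of C57BL6 mice, bred by intercrossing heterozygous parents. Olfactory epithelium with its septa and turbinates was taken at birth (P0), and each of the 3 samples per genotype pooled the tissue of 3 pups from different litters. How Atf5 was disrupted is not stated in the labels, and pooling hides the spread between single pups.

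Adenylyl cyclases make cyclic AMP from ATP, and phosphodiesterases break cyclic AMP, cyclic GMP or both down to the inactive monophosphates, so that the 2 kinds of enzyme together set the level of the messenger. In the cilia of olfactory sensory neurons, odorant receptors act through the G protein subunit encoded by Gnal on the cyclase encoded by Adcy3, and the cyclic AMP made opens a cyclic nucleotide-gated channel. The genes described here are the remaining isoforms, which differ in their regulation by calcium, calmodulin, G proteins and cyclic GMP, and in the tissues where they are best known.

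The array medians lay between 8.67 and 8.72 on the log2 scale, and Pearson correlations over all rows ran from 0.988 to 0.994. Such correlations can miss an array that differs in a small set of genes. Atf5 itself was lower on every knockout array (9.43, 9.44 and 9.50) than on any wild-type array (10.54, 10.96 and 10.63). Of 13 markers of mature olfactory sensory neurons, Omp was at 11.34 in the wild type. Cnga4 was the only 1 with a mean over all arrays below the 30th percentile of genes (8.14). Calls in this paragraph are those of the limma fit described below, in which 3.24% of all genes were called lower and 0.502% higher. Among the 13 markers, 12 were called lower. Their list means were 9.25 to 9.37 in the knockout, against 10.76 to 11.06 in the wild type. Of 3 enamel genes 2 were called lower, and Ambn (-2.32, adjusted p = 0.0891 by limma) lay below 0 but did not pass. Enamel list means were 8.60, 7.98 and 9.02 in the knockout, against 11.61, 11.35 and 9.41 in the wild type. Wild-type replicate 3 thus lay nearer to the knockout arrays than to the other wild-type arrays. Of 5 genes of dividing cells 2 were called higher, Plk1 (0.57) and Bub1b (0.30). Mki67 (0.29), Top2a (0.33) and Cdk1 (0.38) were also above 0 but did not pass. The means of this list ran from 10.58 to 10.75 in the knockout, against 10.15 to 10.42 in the wild type. No skeletal muscle gene of 7 passed the test, but the lowest list mean was that of wild-type replicate 1 (8.85), with the other 5 arrays from 9.88 to 10.22. In whole tissue, fewer cells of a type and less RNA per cell cannot be told apart.

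The genotypes were compared by limma across all genes, with Benjamini-Hochberg adjustment and a threshold of 0.05, to ask which of these enzymes differ in their transcripts when Atf5 is missing. Of the 32 genes, 5 fell in the knockout, all phosphodiesterase genes: Pde1c, Pde4a, Pde7b, Pde8a and Pde6d. They fell by 1.37- to 1.55-fold (n = 3 arrays per genotype). None of the 32 rose, and 27 did not pass the test, among them all 9 cyclases. The 5 make up 15.6% of the 32 genes, while 3.24% of all 19937 genes were called lower and 0.502% were called higher. The median log2 change over the 32 genes was 0.02, against 0.01 over all genes, so the fall concerned single isoforms and not the middle of the list. Knockout and wild-type arrays did not overlap for 8 of the 32 genes (25.0%), 6 lower and 2 higher in the knockout, against 21.1% of all genes. That share is close to the background.

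**Figure D1:**
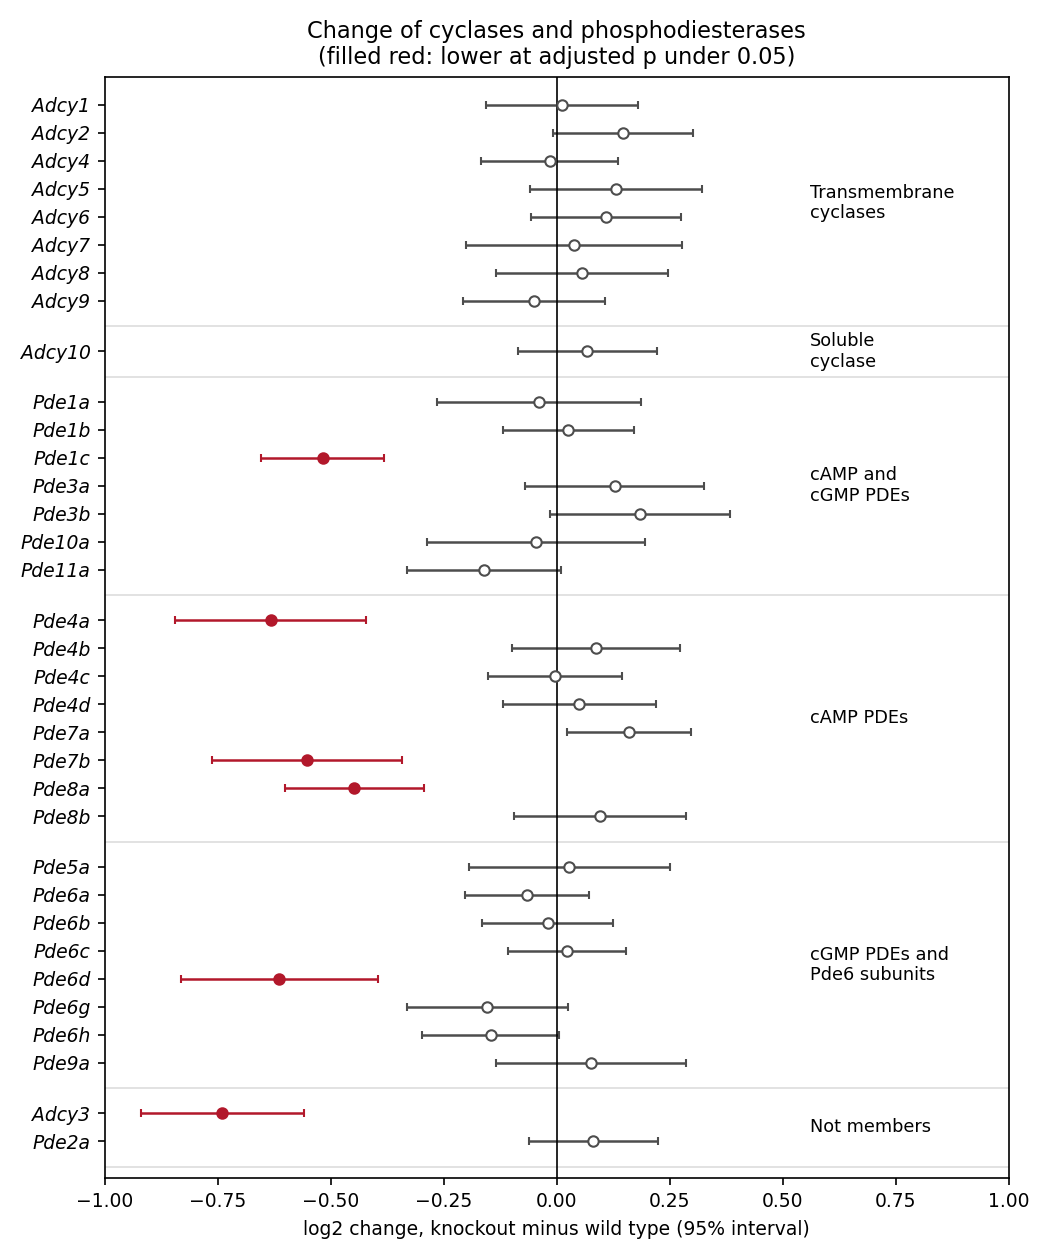
Log2 change (knockout minus wild type, x axis) of each of the 32 genes by class, with Adcy3 and Pde2a for comparison. Points are limma estimates from 3 arrays per genotype and bars 95% intervals. The 5 filled member points lie between -0.63 and -0.45, and the intervals of the other 27 members lie between -0.33 and 0.38.

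The calcium-stimulated phosphodiesterases of family 1 are activated by calmodulin and hydrolyse both cyclic AMP and cyclic GMP. Pde1c, known as a phosphodiesterase of olfactory cilia, had log2 levels of 9.52, 9.56 and 9.54 on the knockout arrays and of 10.12, 10.00 and 10.06 on the wild-type arrays. Every knockout array lay below every wild-type array, and the spread within a genotype was small (9.54 ± 0.02 against 10.06 ± 0.06, SD, n = 3). The log2 change was -0.52 (SE 0.06, adjusted p = 0.00214 by limma), or 1.43-fold lower (95% interval 1.30 to 1.58), the smallest adjusted p of the 32 genes. The other family members overlapped between genotypes: Pde1a, at -0.04 (SE 0.10), ran from 8.02 to 8.38 in the knockout, against from 8.17 to 8.34 in the wild type. Pde1b was at 0.03 (SE 0.06), with knockout arrays from 9.19 to 9.26 and wild-type arrays from 9.14 to 9.29.

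Among the phosphodiesterases specific for cyclic AMP, 3 of 8 fell and 5 did not pass, against 3.24% of all genes called lower. The median log2 change of the 8 was 0.02. Pde4a belongs to the rolipram-sensitive family 4 and is known in the cell bodies and dendrites of olfactory neurons. Its log2 levels were 9.03, 8.75 and 8.98 in the knockout, against 9.65, 9.41 and 9.59 in the wild type. The groups did not overlap, and replicate 2 was the lowest array of each genotype. The change of -0.63 (SE 0.09, adjusted p = 0.00641 by limma) is a 1.55-fold fall (1.34 to 1.80), the largest of the 32 genes.

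The other genes of family 4 did not pass the test. Pde4b was at 0.09 (SE 0.08), Pde4c at -0.00 (SE 0.07) and Pde4d at 0.05 (SE 0.08), and each overlapped between genotypes. Pde4d was the only member with several probe sets; the 2 dimmer ones gave -0.03 and 0.19 and did not pass either (adjusted p = 0.962 and 0.333 by limma over all rows with 1 symbol).

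Pde7b, of the rolipram-insensitive family 7, had log2 levels of 10.63, 10.66 and 10.78 in the knockout, against 11.45, 11.15 and 11.12 in the wild type. Wild-type replicate 1 was the highest array by a clear step, and the groups did not overlap. The change was -0.55 (SE 0.09, adjusted p = 0.0119 by limma), or 1.47-fold lower (1.27 to 1.70). It did not pass without knockout replicate 1 or without knockout replicate 2 (adjusted p = 0.0528 and 0.0521 by limma), with changes of -0.52 and -0.54 there.

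Its partner Pde7a lay the other way. Its levels were 10.23, 10.23 and 10.12 in the knockout, against 10.03, 10.02 and 10.04 in the wild type, so that each knockout array was above each wild-type array. The change of 0.16 (SE 0.06) had an unadjusted p of 0.0267 and an adjusted p of 0.234 by limma, and did not pass.

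Pde8a encodes a high-affinity cyclic AMP phosphodiesterase that common inhibitors such as IBMX do not block. Its log2 levels were 9.81, 9.88 and 9.75 in the knockout, against 10.36, 10.24 and 10.20 in the wild type, with no overlap and a similar spread in both genotypes. The change was -0.45 (SE 0.07, adjusted p = 0.00723 by limma), or 1.37-fold lower (1.23 to 1.52). Pde8b, its partner, overlapped between genotypes and was at 0.10 (SE 0.08), with knockout arrays from 8.82 to 9.13 around wild-type arrays from 8.89 to 8.94.

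Pde6d stands among the genes of the cyclic GMP enzymes of photoreceptors by name, but its product has no catalytic activity. It is a prenyl-binding protein that carries lipid-modified proteins, including those sent to cilia. Its log2 levels were 11.73, 11.61 and 11.43 in the knockout, against 12.33, 12.24 and 12.05 in the wild type. The genotypes did not overlap, and in both of them replicate 1 was the highest and replicate 3 the lowest. The change was -0.61 (SE 0.10, adjusted p = 0.0087 by limma), or 1.53-fold lower (1.32 to 1.78).

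**Figure D2:**
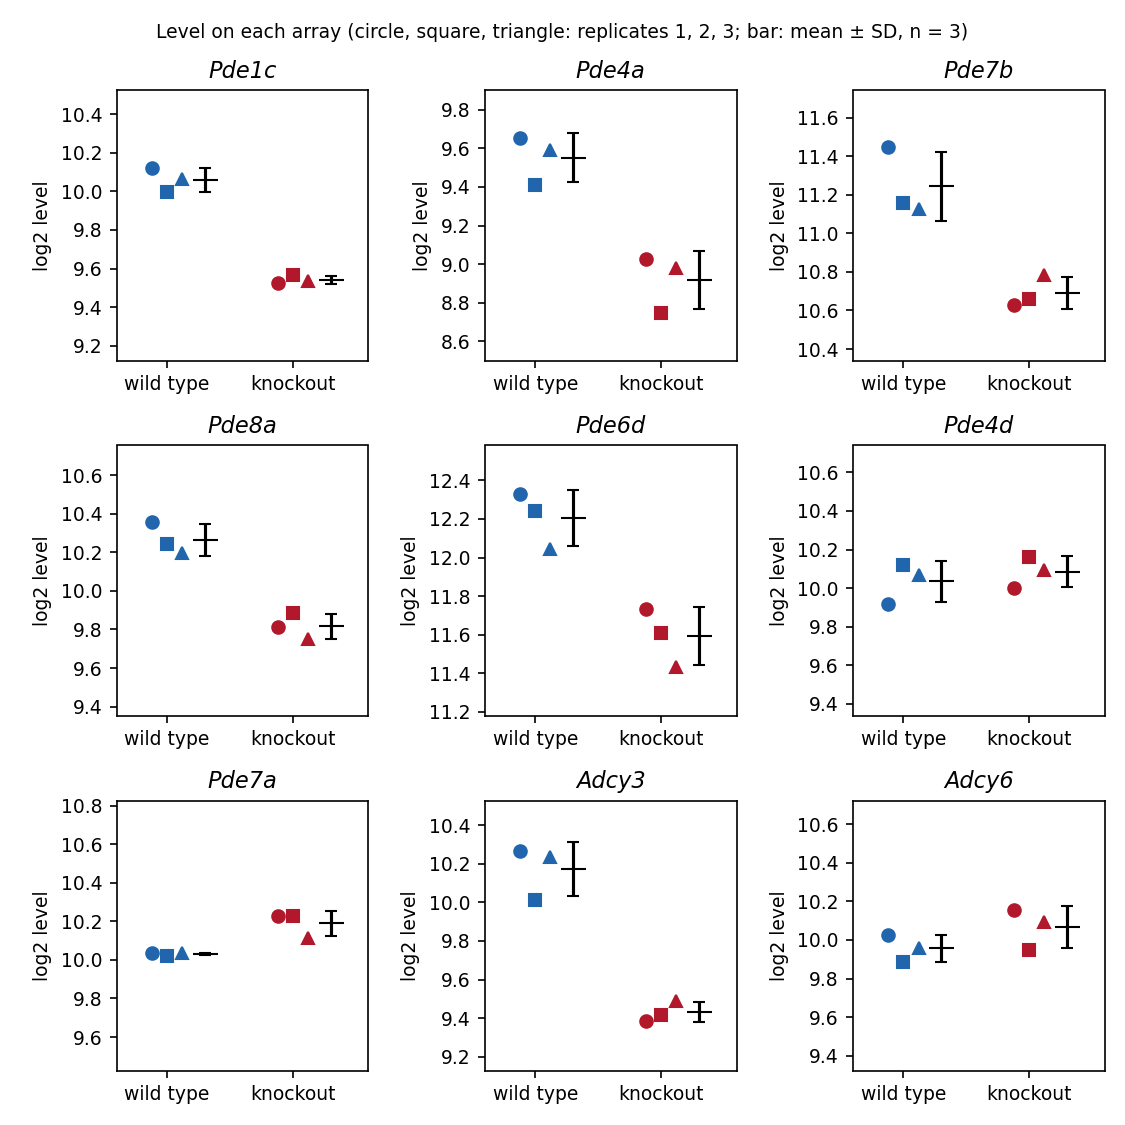
Log2 level (y axis, each panel spanning the same range) on each array for the 5 lower genes, 2 partners that did not pass (Pde4d and Pde7a), Adcy3, and Adcy6 as a cyclase that did not pass. Symbols are replicates, and bars give mean ± SD (n = 3). Knockout arrays lie below wild-type arrays for Pde1c, Pde4a, Pde7b, Pde8a, Pde6d and Adcy3, above them for Pde7a, and overlap for Pde4d and Adcy6.

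Of the remaining photoreceptor subunits, the catalytic ones were dim. The rod catalytic subunits Pde6a (-0.07, SE 0.06) and Pde6b (-0.02, SE 0.06) and the cone catalytic subunit Pde6c (0.02, SE 0.06) each had means over all arrays below the 30th percentile of genes (8.14). The inhibitory subunits Pde6g (-0.15, SE 0.08) and Pde6h (-0.15, SE 0.07) were above that percentile and below the median of genes, and did not pass. All 7 measured photoreceptor markers were below the same percentile, and none of them passed the test. The other cyclic GMP enzymes overlapped between genotypes: Pde5a, the target of sildenafil, was at 0.03 (SE 0.10) and Pde9a, a high-affinity cyclic GMP phosphodiesterase, at 0.08 (SE 0.09).

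Of the other enzymes that take both nucleotides, none passed. Pde3a (0.13, SE 0.09) and Pde3b (0.18, SE 0.09), whose hydrolysis of cyclic AMP is inhibited by cyclic GMP, lay above 0. Pde10a, best known from the striatum, was at -0.05 (SE 0.11). Pde11a had knockout levels of 8.27, 8.00 and 8.15 and wild-type levels of 8.29, 8.31 and 8.30. The knockout arrays were all below the wild-type arrays, by as little as the distance from 8.27 to 8.29, and the change of -0.16 (SE 0.08) had an adjusted p of 0.34 by limma.

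None of the 9 cyclases passed the test. Of all 19937 genes, 3.24% were called lower and 0.502% higher, so 0 calls in 9 genes is near the background. The changes of the cyclases ran from -0.05 to 0.15 with 95% intervals inside -0.21 to 0.32, or 0.866- to 1.25-fold. Those intervals are not adjusted for the number of genes. The calmodulin-stimulated cyclases Adcy1 (0.01, SE 0.07) and Adcy8 (0.06, SE 0.08) overlapped between genotypes. So did Adcy4 (-0.02, SE 0.07) and Adcy7 (0.04, SE 0.11), of the group that G protein beta-gamma subunits can stimulate. Adcy2, of the same group, had the lowest p of the transmembrane cyclases. Its levels were 9.72, 9.63 and 9.64 in the knockout, against 9.59, 9.54 and 9.41 in the wild type, higher on every knockout array, with a change of 0.15 (SE 0.07, adjusted p = 0.336 by limma). The calcium-inhibited cyclases Adcy5 (0.13, SE 0.08) and Adcy6 (0.11, SE 0.07) and the forskolin-insensitive Adcy9 (-0.05, SE 0.07) did not pass. Adcy10, the soluble cyclase stimulated by bicarbonate, was at 0.07 (SE 0.07, adjusted p = 0.706 by limma). Adcy8 and Adcy10 were below the 30th percentile of genes, as were Pde4c, Pde6a, Pde6b and Pde6c, which makes 6 dim genes of 32. Changes of such dim probe sets may be compressed in these values.

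Adcy3, the cyclase of odour transduction, fell in the same fit by 0.74 on the log2 scale (SE 0.08, adjusted p = 0.00146 by limma), with levels from 9.39 to 9.49 in the knockout, against from 10.01 to 10.27 in the wild type. Pde2a, known from olfactory neurons that express guanylyl cyclase D, did not pass (0.08, SE 0.06). The fall of Adcy3 exceeded the change of each other cyclase on the log2 scale by 0.69 to 0.89, and the per-array differences did not overlap between genotypes for any of the 9 pairs. For the 7 pairs of a lower phosphodiesterase and a partner of its family, the difference of the changes ran from -0.72 to -0.48, again without overlap. Each of these 16 differences had p = 0.1 in a two-sided exact permutation test over the 6 arrays, and 0.1 after adjustment over the 16 pairs. This is the smallest p that 3 arrays against 3 can give, so the test could not pass. The pairs were set up after the values of the genes had been seen. Each sets a called gene against one that did not pass, so the lack of overlap follows in part from that choice. All 9 cyclase pairs share the values of Adcy3.

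The promoters of the 5 lower genes are printed because these transcripts moved in the same direction. The RefSeq table of mouse build GRCm38.p6 gives a window from 250 bases before to 50 bases after each start for 23 of the 32 genes, 42 windows in all. In the table as used here, no window was found for Adcy6, Adcy8, Pde3a, Pde3b, Pde6a, Pde6c, Pde6g, Pde7a and Pde9a. The 250 bases before the start are printed 5′ to 3′ on the strand of the gene. Of genes with 3 starts, the most upstream start is shown, and for Pde4a also the second, which holds matches. The array does not tell which start was used. Capitals mark matches to the motifs searched. The windows are chr6:56369635-56369884 on the minus strand for Pde1c, chr9:21165464-21165713 and chr9:21183851-21184100 on the plus strand for Pde4a, chr10:20548329-20548578 on the minus strand for Pde7b, chr7:81213015-81213264 on the plus strand for Pde8a, and chr1:86582786-86583035 on the minus strand for Pde6d.
Pde1c: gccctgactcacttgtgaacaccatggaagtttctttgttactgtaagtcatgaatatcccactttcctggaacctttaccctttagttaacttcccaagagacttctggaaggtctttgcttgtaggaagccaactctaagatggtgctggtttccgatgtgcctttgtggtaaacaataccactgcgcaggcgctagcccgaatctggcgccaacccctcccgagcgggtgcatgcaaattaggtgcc
Pde4a, first start: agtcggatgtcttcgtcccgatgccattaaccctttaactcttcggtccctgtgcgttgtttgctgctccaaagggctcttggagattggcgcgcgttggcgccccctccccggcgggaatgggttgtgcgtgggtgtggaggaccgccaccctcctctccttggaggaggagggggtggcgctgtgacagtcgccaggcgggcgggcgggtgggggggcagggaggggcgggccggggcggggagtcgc
Pde4a, second start: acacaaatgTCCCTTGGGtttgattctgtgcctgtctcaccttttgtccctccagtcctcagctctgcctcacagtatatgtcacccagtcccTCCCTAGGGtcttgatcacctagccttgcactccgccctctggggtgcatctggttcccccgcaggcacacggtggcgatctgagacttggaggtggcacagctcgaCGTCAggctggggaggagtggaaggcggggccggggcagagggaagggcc
Pde7b: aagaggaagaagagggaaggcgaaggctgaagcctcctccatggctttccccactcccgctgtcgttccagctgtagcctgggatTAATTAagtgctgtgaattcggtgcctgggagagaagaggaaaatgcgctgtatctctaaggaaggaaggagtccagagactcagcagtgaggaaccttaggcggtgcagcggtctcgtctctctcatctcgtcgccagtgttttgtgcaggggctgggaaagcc
Pde8a: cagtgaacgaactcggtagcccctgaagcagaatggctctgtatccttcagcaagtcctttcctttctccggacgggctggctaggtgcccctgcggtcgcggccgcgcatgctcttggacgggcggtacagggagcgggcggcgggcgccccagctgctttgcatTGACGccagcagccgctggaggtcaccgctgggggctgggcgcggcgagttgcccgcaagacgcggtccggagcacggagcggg
Pde6d: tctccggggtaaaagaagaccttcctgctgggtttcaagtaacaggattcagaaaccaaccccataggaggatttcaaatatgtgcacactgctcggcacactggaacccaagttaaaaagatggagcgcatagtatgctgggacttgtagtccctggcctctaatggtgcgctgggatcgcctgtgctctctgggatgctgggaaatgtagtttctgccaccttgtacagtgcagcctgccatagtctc

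Motifs were searched on both strands of the 300 bases of each window. The cyclic AMP response element TGACGTCA, a site of ATF/CREB factors, was in 1.79% of all 32851 windows and in 0 of the 42 windows of the 32 genes. With that share, 0 in 42 windows is near the background. Of motifs for these factors, only this element and its first 5 bases were searched. Those first 5 bases, TGACG, which lie within the longer motif, were in 20.8% of all windows and in 8 of the 42 (19.0%). Among the lower genes they were found in Pde8a, at position -84 from the start, and on the opposite strand at -50 of the second start of Pde4a. These are 2 of the 9 windows of the lower genes. Adcy7, Adcy9, Pde1a, Pde4b, Pde6h and Pde8b, which did not pass the test of expression, also held TGACG. The core TCCCNNGGG, bound by the Ebf factors of olfactory neurons, was in 6.56% of all windows and in 6 of the 42 (14.3%). The second start of Pde4a held it at -241 and at -157, the only 1 of the 9 windows of the lower genes with a match. The other genes with this core were Adcy7, Pde4b, Pde4c and Pde6b, which did not pass the test of expression. The homeodomain core TAATTA was in 5.29% of all windows and in 1 of the 42, that of Pde7b, at -165. The windows of Pde1c and Pde6d and the other windows of Pde4a held none of these letters. The GC content of the printed stretches ran from 49.6% (Pde1c) to 68.8% (Pde8a and the first start of Pde4a), against a median of 52.4% over all windows. A match in these windows is a description and not a measured binding site.

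Genes around the enzymes were read from the same fit. Of 78 measured genes in 5 lists, 8 fell, 2 rose and 68 did not pass. Over all 19937 genes, 3.24% were called lower and 0.502% higher. Among 18 cyclic AMP effectors, 5 fell. Cnga2 (-1.93, SE 0.14) and Cnga4 (-1.26, SE 0.10), which encode subunits of the olfactory cyclic nucleotide-gated channel, had the largest falls of the list. Cnga4 was below the 30th percentile of genes, so its change may be compressed. Cngb1, which encodes the other subunit of that channel, did not pass (-0.21, SE 0.09, adjusted p = 0.274 by limma). Its levels were 9.38, 9.30 and 9.63 in the knockout, against 9.61, 9.70 and 9.64 in the wild type, and the genotypes overlapped. Cngb1 passed with the mean of its 4 probe sets (adjusted p = 0.0288 by limma) and without knockout replicate 3 (0.0492). Pkia, an inhibitor of protein kinase A, was at -0.69 (SE 0.13, adjusted p = 0.0173 by limma). It had levels of 9.72, 10.13 and 9.64 in the knockout, against 10.59, 10.59 and 10.37 in the wild type. The hyperpolarization-activated channels Hcn2 and Hcn4, which bind cyclic nucleotides, fell by 0.52 (SE 0.09) and by 0.37 (SE 0.08). The kinase subunits Prkacb (-0.07, SE 0.06) and Prkar1a (-0.01, SE 0.06) did not pass.

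Among 13 measured G proteins and partners of the cyclases, 3 fell and 1 rose. Gnal, the stimulatory subunit of olfactory transduction, was at -2.36 (SE 0.08) and Ric8b, its chaperone, at -1.09 (SE 0.10), while Gnao1, an abundant neuronal subunit, was at -0.39 (SE 0.07). Gnal, Ric8b, Cnga2 and Cnga4, like Adcy3, also stand in the marker list of mature neurons. Gnai1, a subunit that inhibits cyclases, rose by 0.41 (SE 0.08, adjusted p = 0.0173 by limma). Its levels were 10.81, 10.82 and 10.76 in the knockout, against 10.42, 10.49 and 10.24 in the wild type. A-kinase anchoring proteins tether protein kinase A, and often phosphodiesterases, to sites in the cell. None of 15 passed, with Akap1 at 0.10 (SE 0.08) and Akap2, listed on the array under the symbol Pakap, at -0.10 (SE 0.06). With 3.24% of all genes called lower and 0.502% higher, no call in a list of 15 is near the background. With the replicate number as a block, Akap6 (-0.36) passed in this list (adjusted p = 0.0165 by limma), and Pkib (-0.27), which encodes another inhibitor of protein kinase A, passed among the effectors (adjusted p = 0.0419 by limma).

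None of 20 genes of cyclic GMP synthesis and action passed, with Gucy1a1, a subunit of soluble guanylyl cyclase, at 0.20 (SE 0.07) and Gucy1a2 at -0.00 (SE 0.07). No call in a list of this size is also near the share of all genes that were called. Of 12 transcripts known to be induced by cyclic AMP signalling, Per1, a clock gene, rose by 0.35 (SE 0.08, adjusted p = 0.0497 by limma), and Fos (0.00, SE 0.15) and Fosb (-0.01, SE 0.08) did not pass. The adjusted p of Per1 was 0.0828 after quantile normalization and up to 0.145 with 1 array left out, and only without knockout replicate 2 did it pass among those 6 settings. It did not pass with either filter on dim genes. The calls of Pkia, Hcn4, Gnai1 and Gnao1 each ended when knockout replicate 1 or wild-type replicate 1 was left out, with highest adjusted p values of 0.0729, 0.12, 0.0693 and 0.073 by limma. Those of Pkia, Hcn4 and Gnao1 also ended without wild-type replicate 2, that of Hcn4 without knockout replicate 3 and that of Gnai1 without knockout replicate 2.

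**Figure D3:**
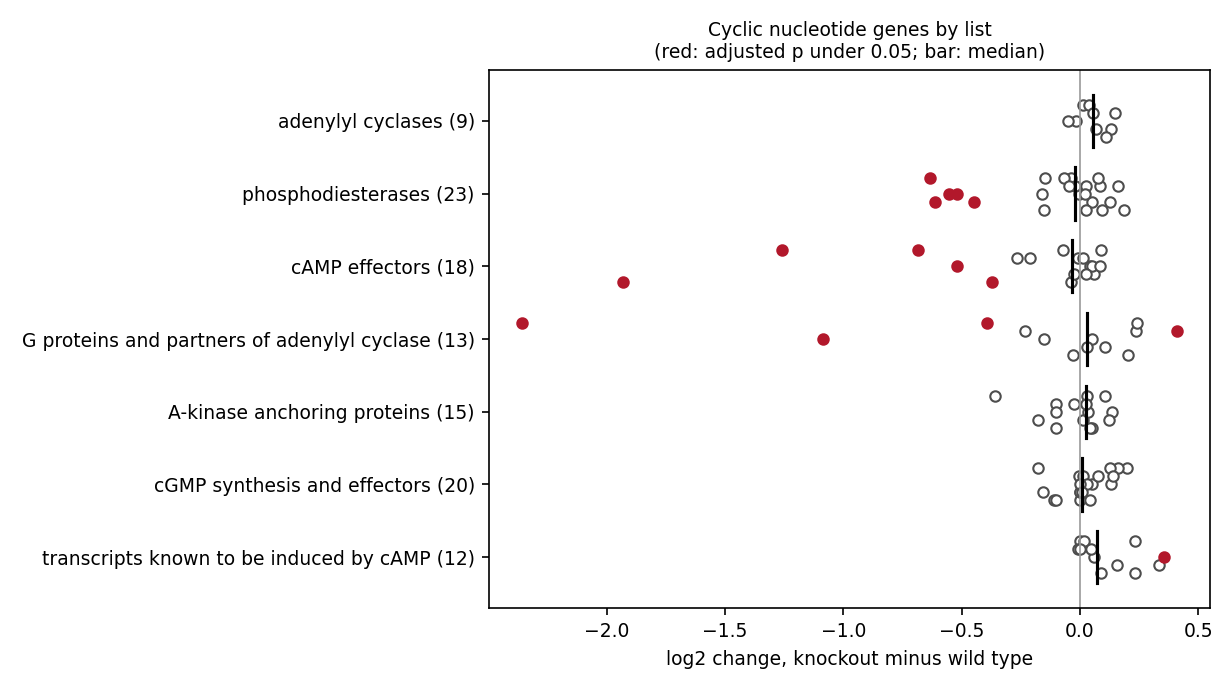
Log2 change (knockout minus wild type, x axis) of every measured gene of the cyclases, the phosphodiesterases and the 5 lists around them, with the number of genes in brackets. Red points passed the test and black bars are list medians. All medians lie between -0.03 and 0.07, and the calls below -1 are Gnal, Cnga2, Cnga4 and Ric8b.

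The 5 lower phosphodiesterase genes changed in the same direction as the markers of mature olfactory sensory neurons. Their changes lay between -0.63 and -0.45, against a median of -1.59 over the 13 markers, of which Cngb1 was at -0.21. Of 8 markers of immature olfactory neurons, 3 were called lower, Dcx (-0.68), Gng8 (-0.45) and Gap43 (-0.43), against 3.24% of all genes. The others did not pass, and the median over the 8 was -0.24. Their list means were 10.59 to 10.80 in the knockout, against 10.92 to 11.05 in the wild type. The part of either cell type, of the enamel genes or of the dividing cells in the fall of the 5 genes was not tested. With 1 array left out, 4 of the 5 passed in each of the 6 settings, in which the adjusted p was 0.00687 to 0.0143 for Pde1c, 0.00982 to 0.0305 for Pde4a, 0.0139 to 0.0343 for Pde8a and 0.00641 to 0.0385 for Pde6d by limma. Pde7b is the exception given above (0.0144 to 0.0528). Without wild-type replicate 1, the array with the lowest muscle mean, all 5 passed.

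**Figure D4:**
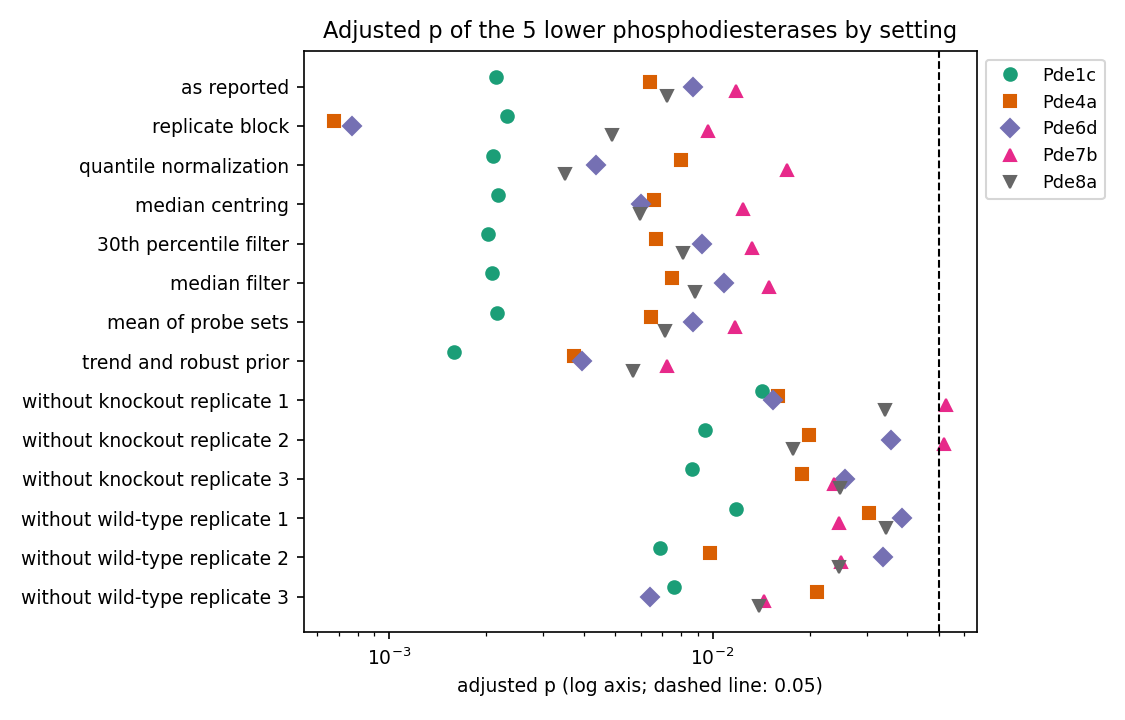
Adjusted p by limma (x axis, log scale) of the 5 lower genes as reported and under 13 other settings (y axis). The dashed line marks 0.05. All points lie left of it except those of Pde7b without knockout replicate 1 (0.0528) and without knockout replicate 2 (0.0521).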

How the data were processed

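The deposited table holds 1 expression value per probe set and array, taken here to be on a log2 scale. RMA, affy and limma are named in the submitters' processing notes, without versions; the sources used here give neither the base of the logarithm nor a genome build. RMA brings all arrays to nearly the same distribution, so a change shared by most transcripts cannot be seen. Of 34760 rows, 21640 had 1 symbol in GEO's platform annotation, 1321 several and 11799 none. The probe set with the highest mean over the 6 arrays stood for each of 19937 genes, with no filter on dim probe sets. Genotypes were compared with limma 3.58.1 in R 4.3.3 (lmFit and eBayes, no covariate, 2-sided, Benjamini-Hochberg over all genes, threshold 0.05). The procedure was also tried on simulated data in which all arrays varied independently, which same-numbered arrays here may not do. SE is the moderated standard error.

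The members, lists, naming rule and motifs were chosen with earlier results of these data known. Every member is named; from each pathway list, the first 2 measured members and up to 4 calls are named, and Hcn4, Cngb1, Calm2, Akap6 and Pkib were added after their values were seen. Same-numbered arrays of the 2 genotypes deviated together from their group means, with correlations of 0.295, 0.122 and 0.234. Each was above the 0.1 set as the limit, so the numbers were treated as a possible pairing. These correlations do not establish a pairing, and what a shared number stands for is not stated. The reported fit leaves the number out, and the block was run as an alternative. Values with the number as a block stand where they change a call. Alternatives were the block, quantile normalization, median centring, filters at the 30th percentile and the median of gene means, the mean of probe sets, a trended and robust prior, and each array left out.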

Additional observations from a re-analysis of the deposited data

How the results depend on the processing

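With 3 arrays per genotype, precision is limited by their number, and dim probe sets carry little signal over background. The count of lower members was 5 as reported and under each of the 7 settings that kept all arrays; with 1 array left out it was 4 to 5. The count of higher members was 0 in all 13 settings. Of 393 values of single members under these settings, 391 kept their side of the threshold and 2 did not, both of Pde7b. No called change turned its sign. Of the changes that did not pass, 18 values of 10 members turned their sign, at sizes up to 0.08, and none of these passed. The 30th percentile filter kept 26 of the 32 members and the median filter 15. With the replicate block, 889 genes were lower and 421 higher, against 645 and 100 as reported, and the block changed no call of a member. The 30th percentile filter gave 358 lower genes, and the median filter 226 lower and 60 higher. These filters tested fewer genes. With 1 array left out, 383 to 584 genes were lower and 27 to 127 higher, with the lowest values without wild-type replicate 1; 403 were lower without knockout replicate 1. Of the genes around the enzymes, 8 were lower and 2 higher as reported, and 5 to 9 were lower and 0 to 2 higher with 1 array left out. With the block 10 were lower, where Pkib and Akap6 passed in addition. With the 30th percentile filter 7 were lower and with the median filter 6. The first filter removed Cnga4, and the second removed Cnga4 and Hcn2, so these genes were not tested there. After quantile normalization and with either filter 1 was higher, and Per1 did not pass. With the mean of probe sets 10 were lower, where Cngb1 and Calm2 (adjusted p = 0.0459 by limma) passed in addition. The cause of the other differences between settings was not tested.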
